A study of Homo sapiens with 12 samples.

Results

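HNRNPA1, HNRNPA2B1, HNRNPC, HNRNPD, HNRNPF, HNRNPH1, HNRNPK, HNRNPL, HNRNPM and HNRNPU encode abundant heterogeneous nuclear ribonucleoproteins (hnRNPs). They were taken by exact match of the gene symbol in the abundance tables of 12 RNA-seq libraries, and the match gave 10 of 58288 gene IDs and 196 of 200401 transcript models. Together the 10 genes held between 0.779% and 0.980% of the summed TPM of a library (kallisto's abundance per transcript length, scaled to a fixed library sum).

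The libraries came from HEK-293T, a human embryonic kidney line with SV40 large T antigen, and from RNA enriched for mRNA. By the labels all cells had a CIRTS effector, an RNA-targeting protein assembled from human protein parts, and a guide RNA. The 4 groups of 3 libraries were YTHDF2-SMARCA4 (CIRTS-3 with the m6A reader YTHDF2 and a guide against SMARCA4), YTHDF2-NT (the same effector with a non-targeting guide), nuclease-SMARCA4 (CIRTS-12 with a nuclease and the SMARCA4 guide) and nuclease-NT (CIRTS-12 with the non-targeting guide). The labels give neither how the constructs were delivered nor any batch, and no group lacks an effector. The series names the libraries of a group biological replicates, but nothing ties them to separate cultures, so the p-values rest on a spread between libraries that may be technical. An effector cannot be told apart from a batch that went with it, and in bulk RNA fewer expressing cells and less RNA per cell cannot be told apart.

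The hnRNPs bind nascent RNA in the nucleus, package it, and take part in splice site choice, polyadenylation, export and decay. Several of them keep their own level in check through unproductive splicing, in which an alternative exon or 3′ end turns the transcript into a substrate of nonsense-mediated decay (NMD). HNRNPC and HNRNPA2B1 proteins have also been described as binding RNA according to its m6A state, and YTHDF2 is a cytoplasmic protein that binds m6A and speeds mRNA decay.

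Library totals lay between 9207196 and 18047859 estimated counts. Of 8 markers listed for HEK-293T, 7 had a median of at least 1 TPM, and their summed level was 631 to 742 TPM in YTHDF2-SMARCA4, 616 to 655 in YTHDF2-NT, 691 to 723 in nuclease-SMARCA4 and 637 to 684 in nuclease-NT. Of other cell types, 1 of 6 fibroblast, 0 of 5 blood and 0 of 5 liver markers reached that level, and HBB and SERPINA1 were listed at 0 throughout. SMARCA4, the guide's target, had 243, 210 and 221 CPM in YTHDF2-SMARCA4, against 302, 235 and 250 CPM in YTHDF2-NT. With the nuclease it had 239, 250 and 220 CPM under the SMARCA4 guide, against 225, 245 and 242 CPM under the non-targeting guide. CPM are estimated counts divided by library size, scaled between libraries by edgeR's TMM factors. The SMARCA4 values overlapped between guides with both effectors.

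Replicates 1 and 2 of YTHDF2-NT stood apart by transcript length, in opposite directions. Over 9944 genes, the deviation of a library from the gene's mean followed transcript length with rank correlations (Spearman rho) of −0.65 for replicate 1 of YTHDF2-NT, 0.65 for replicate 2 and −0.35 for replicate 3. It was −0.37 to 0.49 in the 9 libraries of other groups, a range that holds replicate 3 of YTHDF2-NT. These rho values run across genes of a library, which are not independent. For the hnRNPs, YTHDF2-NT 1 had the lowest TPM of all 12 libraries for 7 of the 10 genes and the highest CPM for 5 of them. CPM do not divide by length and are scaled by TMM factors, which ranged from 0.90 in YTHDF2-NT 1 to 1.04 in nuclease-NT 2. TPM divide by length and were not scaled by these factors, so the scales differ in more than length. The comparisons of the 10 genes between groups are given on both scales, and TPM are not CPM with the length trend removed. A fit with the length trend removed from the counts called 0 of the 10 genes in each of the 5 comparisons. The share of all genes called in that fit is not given.

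On GRCh38 (GENCODE v29 annotation), HNRNPA1 (chr12:54280193-54287088) and HNRNPM (chr19:8444767-8489114) lie on the plus strand. The others lie on the minus strand, HNRNPA2B1 at chr7:26173057-26201529, HNRNPC at chr14:21209136-21269494, HNRNPD at chr4:82352498-82374503 and HNRNPF at chr10:43385617-43409166. HNRNPH1 lies at chr5:179614178-179634784, HNRNPK at chr9:83968083-83980616, HNRNPL at chr19:38836388-38852347 and HNRNPU at chr1:244840638-244864560.

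HNRNPA1 was the most abundant of the 10 on the TPM scale. Its protein is a core component of hnRNP particles and a splicing repressor. Its level ranged over the 12 libraries from 2316 to 3014 TPM with a median of 2714 TPM, the 67th of all gene IDs by median level. HNRNPA2B1, whose A2 and B1 proteins share that core, had a median of 1317 TPM and a range of 1200.0 to 1470 TPM. The uridine-tract binder HNRNPC had a median of 1262 TPM and a range of 1120 to 1364 TPM. HNRNPA1 exceeded HNRNPA2B1 in 12 of 12 libraries without overlap of their ranges, whereas HNRNPA2B1 exceeded HNRNPC in 9 of 12.

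HNRNPD, also called AUF1, binds AU-rich elements and had a median of 686 TPM (593 to 784). HNRNPL, which binds CA repeats, had a median of 626 TPM (588 to 673). HNRNPK, a protein with KH domains that binds cytosine tracts, had a median of 610 TPM (452 to 678). HNRNPU, which binds nuclear RNA and chromatin and is also called SAF-A, had a median of 600 TPM (490.0 to 702). These 4 ranges overlapped, and HNRNPK exceeded HNRNPU in 6 of 12 libraries. HNRNPH1, a binder of guanine tracts, had a median of 517 TPM (375 to 688). HNRNPM, a splicing regulator that favours GU-rich sequence, had a median of 402 TPM (363 to 528). HNRNPF, the second guanine-tract binder, was lowest at a median of 165 TPM (115 to 178.6), below HNRNPM in 12 of 12 libraries and the 831st gene ID by median level.

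**Figure D1:**
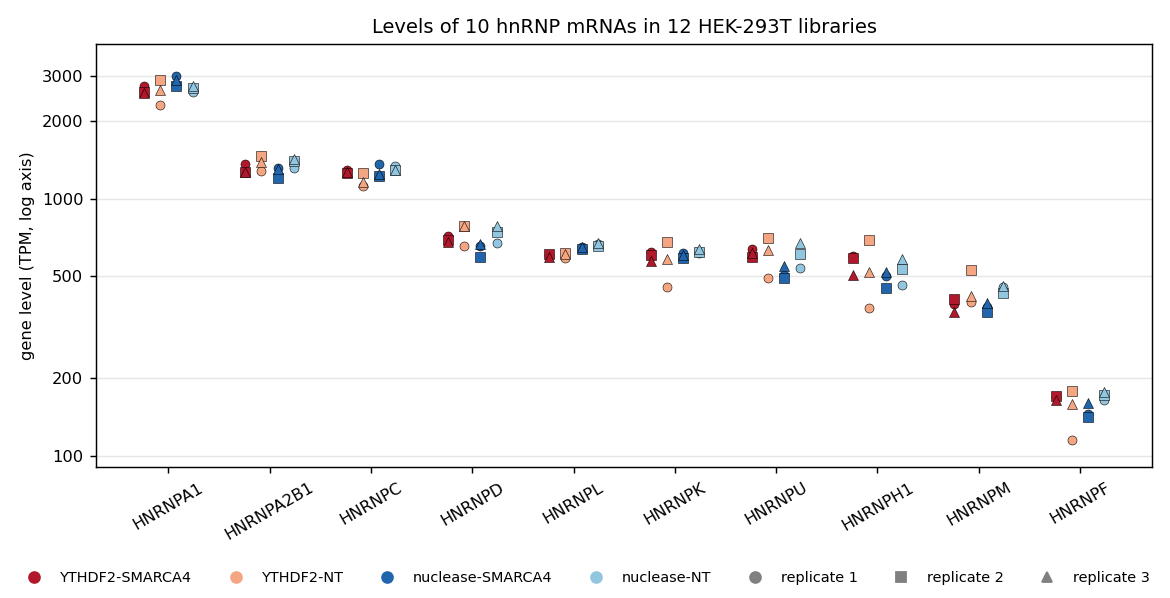
Gene level in TPM on a log axis for the 10 hnRNP genes, ordered by median; each point is 1 of the 12 libraries, with colour for group and shape for replicate number. HNRNPA1 lies between 2316 and 3014 TPM, HNRNPF between 115 and 178.6 TPM, and YTHDF2-NT replicate 1 is the lowest point for 7 genes.

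Replicates of the hnRNPs were close. The median over the 10 genes of the coefficient of variation of CPM was 1.57% in YTHDF2-SMARCA4, 7.06% in YTHDF2-NT, 2.53% in nuclease-SMARCA4 and 3.18% in nuclease-NT. Over all 16297 genes tested the same medians were 7.79%, 17.4%, 8.76% and 8.24% in that order of groups, so YTHDF2-NT was the most variable group for both. Only 436 of these genes had a mean CPM of at least that of HNRNPF, the least abundant of the 10. No median for genes of like abundance is given, so the smaller spread cannot be called particular to hnRNPs.

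In-frame coding segments that some transcript models of these genes carry and others skip were measurable at 9 places, with a mean of at least 5 TPM on each form. Of these, 4 are printed because they define named protein forms. The 39 bases of HNRNPC, at chr14:21230958-21230996 on the minus strand of GRCh38, arise from an alternative splice site and distinguish C2 from C1. The 36 bases of HNRNPA2B1, at chr7:26197831-26197866 on the minus strand, are the cassette exon near the start of the coding sequence that distinguishes B1 from A2. HNRNPD has 2 cassette exons, of 57 bases at chr4:82371528-82371584 and of 147 bases at chr4:82356537-82356683, both on the minus strand, and their combinations give its 4 AUF1 proteins. Each is shown 5′ to 3′ on the transcript's strand, with the segment in capitals and 12 bases of the neighbouring transcript sequence in lower case on each side.
HNRNPC 39-base segment: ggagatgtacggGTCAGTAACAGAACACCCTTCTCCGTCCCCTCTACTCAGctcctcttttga
HNRNPA2B1 36-base segment: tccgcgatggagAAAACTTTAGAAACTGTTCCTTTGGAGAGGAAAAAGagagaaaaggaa
HNRNPD 57-base segment: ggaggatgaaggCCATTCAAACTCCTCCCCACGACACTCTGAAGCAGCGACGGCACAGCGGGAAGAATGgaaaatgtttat
HNRNPD 147-base segment: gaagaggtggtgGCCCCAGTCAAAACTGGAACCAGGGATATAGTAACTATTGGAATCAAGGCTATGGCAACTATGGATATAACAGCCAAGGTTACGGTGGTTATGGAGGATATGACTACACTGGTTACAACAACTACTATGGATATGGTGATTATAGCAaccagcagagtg

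The segments differed in base composition, with 53.8% G and C in that of HNRNPC, 33.3% in that of HNRNPA2B1, and 57.9% and 41.5% in the 57-base and 147-base segments of HNRNPD.

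Inclusion was the share of TPM, among models that cover a segment's position, that lies on models with it. The C1 form of HNRNPC, without the 39 bases, predominated, since inclusion ranged from 25.7% to 34.2% over the 12 libraries. The A2 form of HNRNPA2B1 predominated further, with inclusion of the 36 bases between 4.67% and 7.55%. Of the mean of 87.4 TPM on HNRNPA2B1 models with that segment, 86.0% lay on HNRNPA2B1-203, a model annotated to NMD, so the measure is mostly that model.

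For HNRNPD, inclusion was 54.8% to 69.2% for the 57-base exon and 22.6% to 32.3% for the 147-base exon. Of the mean of 314 TPM on HNRNPD models without the 147-base exon, 176 TPM lay on HNRNPD-211, a model annotated to NMD. The inclusion of that exon is therefore not a ratio of protein forms. The 72-base cassette of HNRNPK was included at 89.4% to 97.7% and the 54-base cassette of HNRNPM at 96.3% to 97.9%. A 45-base cassette of HNRNPM stood at 86.7% to 99.8%, its highest value in YTHDF2-NT 1. A 57-base stretch of HNRNPU at an alternative splice site was included at 12.7% to 17.97%.

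With the nuclease, 2 of the 9 segments had inclusion values that did not overlap between guides, against 10.8% of 1218 such segments in all genes. Beyond the minimum of 5 TPM on each form, those segments were not matched to the hnRNPs for abundance. Inclusion of the 39 bases of HNRNPC was 25.7%, 26.4% and 26.6% in nuclease-SMARCA4, against 31.5%, 31.3% and 29.02% in nuclease-NT. All nuclease-SMARCA4 libraries lay below all nuclease-NT libraries, with means of 26.2% ± 0.46 and 30.6% ± 1.38 (SD, n = 3 each) and an exact two-sided permutation p of 0.1, the smallest that 3 against 3 libraries can give. Inclusion of the 36 bases of HNRNPA2B1 was 5.30%, 4.67% and 6.11% in nuclease-SMARCA4, against 7.24%, 7.50% and 7.55% in nuclease-NT, likewise without overlap (exact permutation p = 0.1).

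With YTHDF2, 0 of the 9 segments separated the guides, against 10.9% of all segments. HNRNPC inclusion was 27.8%, 28.99% and 29.2% in YTHDF2-SMARCA4, against 34.2%, 28.2% and 30.6% in YTHDF2-NT, and the ranges overlapped. Leaving out 1 library gave 0 to 3 of the 9, with 3 without YTHDF2-NT 1 (against 19.3% of all segments in the same reduced groups) and 3 without YTHDF2-NT 2 (against 34.8%).

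Between effectors under the SMARCA4 guide, 2 of the 9 segments separated the groups, among them that of HNRNPC, against 12.7% of all segments. The HNRNPC segment was included more in YTHDF2-SMARCA4, at 28.6% ± 0.75, against 26.2% ± 0.46 in nuclease-SMARCA4 (SD, n = 3 each, exact permutation p = 0.1). With nuclease-SMARCA4 3 left out, 4 of the 9 segments separated, against 22.8% of all segments in the same reduced groups. Under the non-targeting guide, 0 of 9 segments separated YTHDF2-NT from nuclease-NT, against 8.95% of all segments, and without YTHDF2-NT 3 it was 2 of 9, against 16.2%. The comparisons share groups, and each segment's values in them are not independent.

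**Figure D2:**
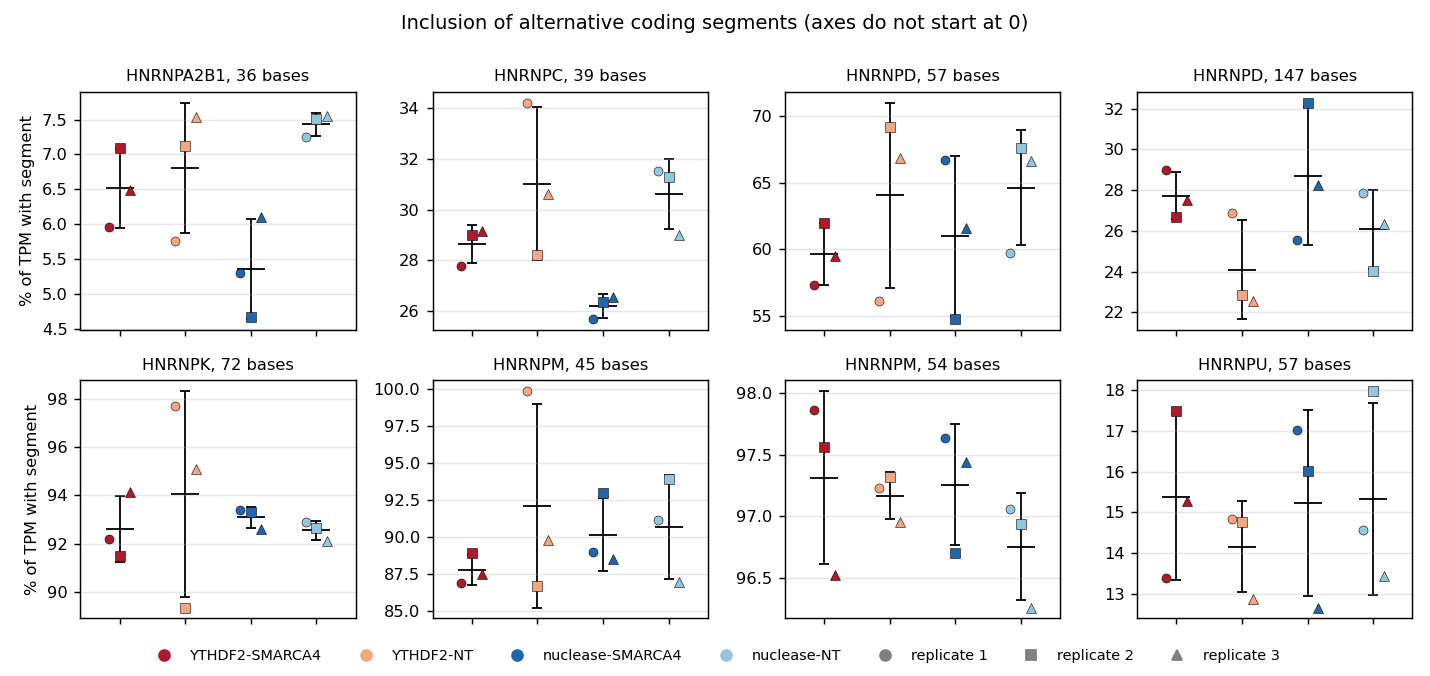
Inclusion of 8 of the 9 alternative coding segments of hnRNP genes, in percent of the TPM of models that cover the position; points are libraries, black bars mean ± SD of 3, and axes do not start at 0. The HNRNPC panel shows all nuclease-SMARCA4 libraries at 25.7% to 26.6%, below the nuclease-NT libraries at 29.02% to 31.5%.

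Guides were first compared for YTHDF2. On the CPM scale 9 of the 10 hnRNPs had lower fitted levels in YTHDF2-SMARCA4 than in YTHDF2-NT, and in 8 the libraries of the groups did not overlap, against 9.27% of all genes tested and 13.1% of the 436 genes at least as abundant as HNRNPF (0.459% higher and 12.6% lower). On the TPM scale the direction did not hold: 6 of the 10 had higher and 4 lower means in YTHDF2-SMARCA4, and the only one without overlap was HNRNPC, which was higher (9.98% of all genes were without overlap in TPM). No hnRNP separated the groups in the same direction on both scales, against 3.30% of all genes. None passed edgeR's quasi-likelihood test at an adjusted p below 0.05, nor did any of the 16297 genes (0.00%). At an unadjusted p below 0.05 there were 4 of the 10, against 6.82% of all genes. DESeq2 called 0 of the 10, and its share of all genes in this comparison is not given.

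The 4 with low unadjusted p were HNRNPM, HNRNPA2B1, HNRNPD and HNRNPA1. HNRNPM had 444, 451 and 449 CPM in YTHDF2-SMARCA4, against 685, 529 and 542 CPM in YTHDF2-NT. The groups did not overlap, and YTHDF2-NT 1 lay far above the rest. The fitted difference was −23.4% (95% interval −32.7 to −12.9, adjusted p = 0.703 in edgeR), and in TPM, where HNRNPM had 388, 409 and 363 in YTHDF2-SMARCA4 against 396, 528 and 417 in YTHDF2-NT, the groups overlapped.

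HNRNPA2B1 had 1914, 1855 and 1886 CPM in YTHDF2-SMARCA4, against 2403, 2051 and 2180 CPM in YTHDF2-NT. All YTHDF2-SMARCA4 libraries were lower, with a fitted difference of −14.8% (−23.0 to −5.69, edgeR adjusted p = 0.703). Its TPM overlapped, with means of 1303 in YTHDF2-SMARCA4 and 1381 in YTHDF2-NT. HNRNPD had 663, 650.5 and 653 CPM in YTHDF2-SMARCA4, against 829, 695 and 790 CPM in YTHDF2-NT. These did not overlap either, with a fitted difference of −15.0% (−23.8 to −5.14, edgeR adjusted p = 0.703), while TPM did.

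HNRNPA1 had 2787, 2679 and 2780 CPM in YTHDF2-SMARCA4, against 3381, 2904 and 3024 CPM in YTHDF2-NT, again without overlap. The fitted difference was −11.4% (−19.9 to −2.05, edgeR adjusted p = 0.703), but the means in TPM were 2637 in YTHDF2-SMARCA4 and 2624 in YTHDF2-NT. The other 4 that separated in CPM had intervals that included 0, HNRNPU at −8.84%, HNRNPH1 at −5.71%, HNRNPL at −4.99% and HNRNPK at −4.76%. HNRNPC and HNRNPF overlapped in CPM, at −3.30% and 1.83%, and both were higher by mean TPM in YTHDF2-SMARCA4, by 7.92% and 11.7%.

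The absence of calls depended on YTHDF2-NT 2 and on the filter for low counts. Without replicate 2, YTHDF2-NT keeps replicates 1 and 3, whose rank correlations with transcript length were −0.65 and −0.35. The part of the length trend in the calls was not tested. With YTHDF2-NT 2 left out, edgeR called HNRNPM (adjusted p = 0.0230), HNRNPD (0.0232), HNRNPA2B1 (0.0236) and HNRNPA1 (0.0410), all lower in YTHDF2-SMARCA4. In that fit 1585 of 16760 genes (9.46%) were called. With no filter on low counts HNRNPM alone of the 10 was called (edgeR adjusted p = 0.0105), among 214 of 34569 genes (0.619%).

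**Figure D3:**
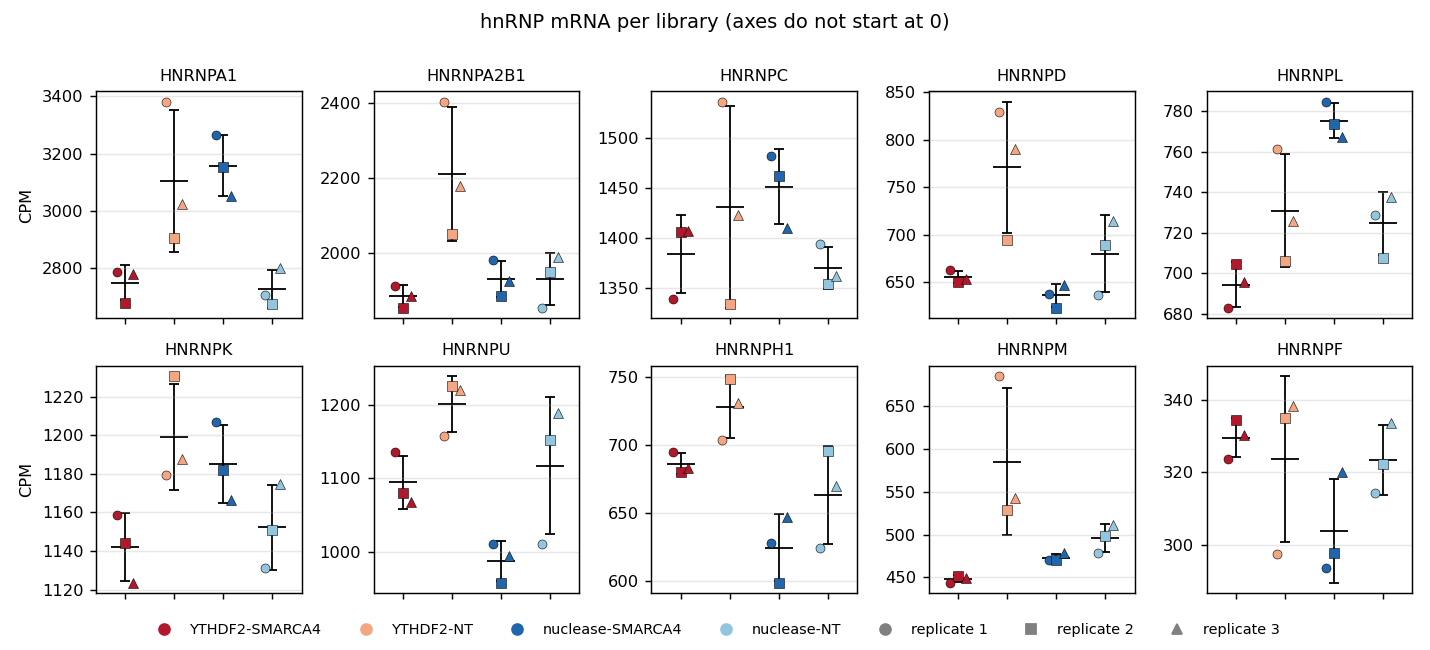
CPM of each hnRNP gene by library (points; black bars mean ± SD of 3 libraries), with axes that do not start at 0. YTHDF2-NT replicate 1 is the highest library for 5 genes, among them HNRNPM at 685 CPM, and nuclease-SMARCA4 lies above nuclease-NT for HNRNPA1.

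With the nuclease, HNRNPA1 was higher and HNRNPM lower under the SMARCA4 guide on both scales, without overlap of the libraries. Of all genes, 12.3% separated in 1 direction on both. That share was not taken for abundant genes alone, so it is not a like comparison. In CPM alone 5 of the 10 separated, 3 higher (HNRNPA1, HNRNPC and HNRNPL) and 2 lower (HNRNPM and HNRNPU), against 25.1% of all genes and 64.2% of the 436 abundant ones. The fitted median of the 10 was −0.03 on the log2 scale, and that of all genes tested −0.00025. None of the 10 was called by edgeR, which called 1 of 16297 genes (0.00614%). DESeq2 called 0 of the 10, and its share of all genes for the nuclease guide is not given. HNRNPA1 and HNRNPU were the 2 of 10 with an unadjusted p below 0.05, against 10.9% of all genes.

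HNRNPA1 had 3265, 3154 and 3052 CPM in nuclease-SMARCA4, against 2704, 2673 and 2801 CPM in nuclease-NT. All nuclease-SMARCA4 libraries were higher, by 15.8% in the fit (4.72 to 28.1, edgeR adjusted p = 0.292). In TPM it had 3014, 2750.1 and 2896 in nuclease-SMARCA4, against 2607, 2688 and 2742 in nuclease-NT, likewise without overlap, with a difference of means of 7.74%. The TPM ranges nearly touched, at 2750.1 in nuclease-SMARCA4 2 and 2742 in nuclease-NT 3. HNRNPA1 was called where the 6 nuclease libraries were fitted alone (edgeR adjusted p = 0.0328, among 550 of 15426 genes, 3.57%). With YTHDF2-NT 1 and YTHDF2-NT 2 left out together, the log2 fold change of HNRNPA1 was 0.21. Of the 436 abundant genes, 58.3% were higher and 5.96% lower without overlap in this comparison.

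HNRNPM had 470.0, 470.0 and 478 CPM in nuclease-SMARCA4, against 478, 499 and 511 CPM in nuclease-NT. The ranges came within 1 CPM of each other without overlap, and the fitted difference of −4.71% (−16.2 to 8.38, edgeR adjusted p = 0.811) was within its error. In TPM HNRNPM had 379, 363 and 392 in nuclease-SMARCA4, against 452, 428 and 456 in nuclease-NT, a difference of means of −15.1%.

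HNRNPU had 1010.0, 958 and 994 CPM in nuclease-SMARCA4, against 1011, 1151 and 1188 CPM in nuclease-NT. The fitted difference was −11.6% (−20.4 to −1.85, edgeR adjusted p = 0.376), and its TPM overlapped at means of 514 in nuclease-SMARCA4 and 607 in nuclease-NT. HNRNPL went opposite ways on the 2 scales, each without overlap: its CPM were 785, 774 and 768 in nuclease-SMARCA4 against 729, 707 and 738 in nuclease-NT, while its TPM were 651, 637 and 650.3 in nuclease-SMARCA4 against 664, 656 and 673 in nuclease-NT. No direction can therefore be given for HNRNPL.

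HNRNPC was 5.93% higher in CPM and 2.03% lower by mean TPM under the SMARCA4 guide (interval in CPM −3.83 to 16.7). HNRNPD and HNRNPF overlapped in CPM, at −6.49% and −6.06%, and were lower without overlap in TPM, by means of −13.0% and −13.3%. HNRNPH1 (−5.81%), HNRNPK (2.84%) and HNRNPA2B1 (0.090%) overlapped on both scales, and with length-scaled TPM in place of counts the fitted sign of HNRNPH1 and HNRNPA2B1 turned.

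The difference between the guide effects of YTHDF2 and of the nuclease was tested as an interaction, on counts only. HNRNPA1 had the lowest unadjusted p of the 10, with a guide effect with YTHDF2 that differed by −23.5% from that with the nuclease (95% interval −33.7 to −11.8, adjusted p = 0.271 in edgeR). HNRNPM (−19.6%, −33.0 to −3.60, edgeR adjusted p = 0.411) and HNRNPA2B1 (−14.8%, −26.2 to −1.75, edgeR adjusted p = 0.423) also had unadjusted p below 0.05, so 3 of 10 did, against 11.1% of all genes. EdgeR called 0 of the 10 and 0 of all genes (0.00%). DESeq2 called HNRNPA1 (adjusted p = 0.0195), among 55 genes (0.337%). Left without YTHDF2-NT 2, edgeR called HNRNPA1 (0.0218), HNRNPM (0.0428) and HNRNPA2B1 (0.0475) among 1444 of 16760 genes (8.62%). Without YTHDF2-NT 1 and YTHDF2-NT 2 the log2 difference of HNRNPA1 was −0.35.

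**Figure D4:**
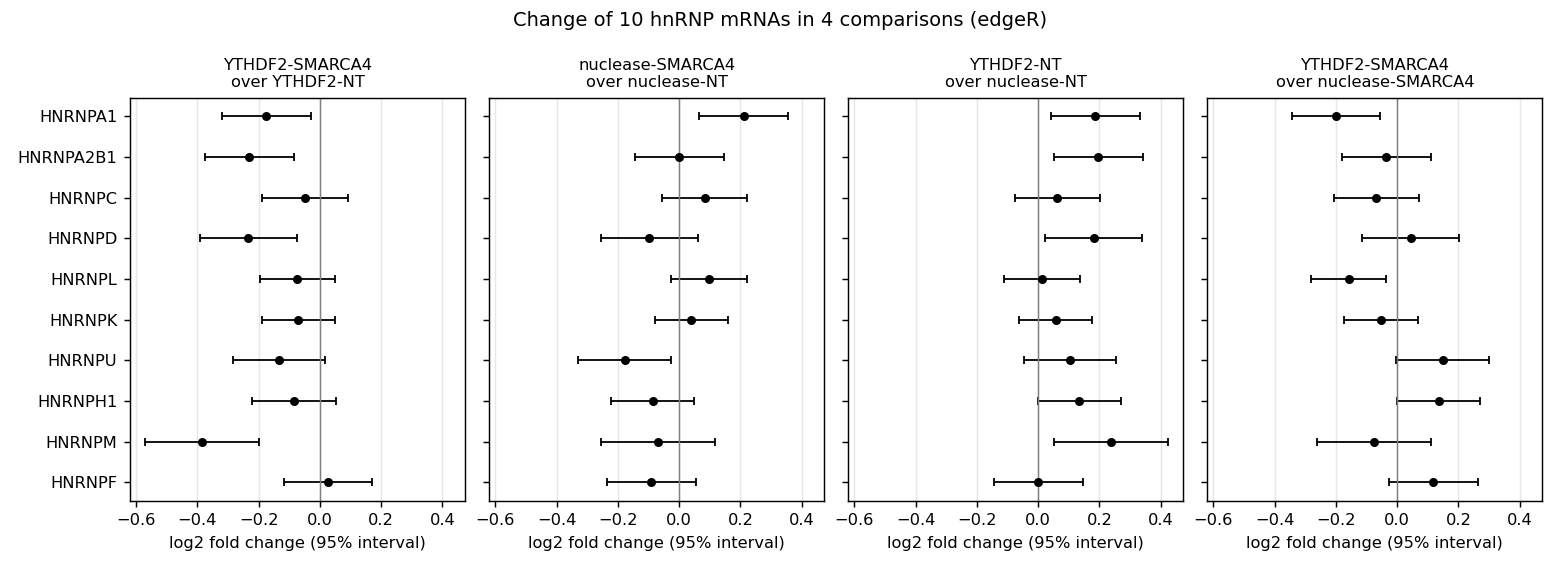
Log2 fold change of the 10 hnRNP genes with 95% intervals in 4 comparisons, each of the group named first over the group named below it (edgeR, 12 libraries). HNRNPM reaches −0.38 for the SMARCA4 guide with YTHDF2 and HNRNPA1 0.21 with the nuclease, and no adjusted p is below 0.05.

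Effectors were then compared within each guide. Under the SMARCA4 guide, 5 of the 10 hnRNPs separated YTHDF2-SMARCA4 from nuclease-SMARCA4 in the same direction on both scales, against 14.7% of all genes: HNRNPA1 and HNRNPL were lower, and HNRNPD, HNRNPF and HNRNPU higher, with YTHDF2. The share on both scales was not taken for abundant genes alone, so 5 of 10 cannot be called particular to hnRNPs. In CPM alone 9 of 10 separated, against 26.7% of all genes and 54.8% of the 436 abundant ones. The 9 were 4 higher and 5 lower with YTHDF2, and of the abundant genes 9.40% were higher and 45.4% lower. None of the 10 was called by edgeR, which called 1 gene of all (0.00614%). DESeq2 called 0 of the 10, against 102 of all genes (0.626%). At an unadjusted p below 0.05 there were 2 of the 10, against 11.5% of all genes.

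HNRNPA1 had 2787, 2679 and 2780 CPM in YTHDF2-SMARCA4, against 3265, 3154 and 3052 CPM in nuclease-SMARCA4, a fitted difference of −12.9% (−21.3 to −3.72, edgeR adjusted p = 0.331). Its TPM of 2740, 2594 and 2576 in YTHDF2-SMARCA4 were also all under the 3014, 2750.1 and 2896 in nuclease-SMARCA4. HNRNPL had 683, 705 and 696 CPM in YTHDF2-SMARCA4, against 785, 774 and 768 CPM in nuclease-SMARCA4, a difference of −10.4% (−17.8 to −2.42, edgeR adjusted p = 0.346). Its TPM of 604, 610 and 595 in YTHDF2-SMARCA4, against 651, 637 and 650.3 in nuclease-SMARCA4, did not overlap. Fitted on the 6 SMARCA4-guide libraries alone HNRNPA1 was called (edgeR adjusted p = 0.0348), among 660 of 15542 genes (4.25%). Without YTHDF2-NT 1 and YTHDF2-NT 2 the log2 fold changes were −0.20 for HNRNPA1 and −0.16 for HNRNPL.

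HNRNPU had 1135, 1080 and 1068 CPM in YTHDF2-SMARCA4, against 1010.0, 958 and 994 CPM in nuclease-SMARCA4. All YTHDF2-SMARCA4 libraries were higher, by 10.8% in the fit (−0.179 to 23.0, edgeR adjusted p = 0.449), and by 19.4% in mean TPM. HNRNPF had 324, 334 and 330.3 CPM in YTHDF2-SMARCA4, against 293, 298 and 320.1 CPM in nuclease-SMARCA4 (8.47%, −1.91 to 19.96, edgeR adjusted p = 0.526), and HNRNPD differed by 3.10% in CPM and 9.01% in mean TPM. HNRNPH1 (9.83% higher in CPM), HNRNPC (−4.65%), HNRNPK (−3.63%) and HNRNPM (−5.17%) separated in CPM and overlapped in TPM, and HNRNPA2B1 (−2.45%) overlapped in both.

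Under the non-targeting guide, all 10 hnRNPs had fitted CPM levels above nuclease-NT in YTHDF2-NT, by 0.065% for HNRNPF to 17.997% for HNRNPM, and 5 separated, all higher, against 12.8% of all genes and 25.0% of the abundant ones (24.8% higher and 0.229% lower). On the TPM scale 6 of the 10 means were lower in YTHDF2-NT, and HNRNPC and HNRNPL were lower without overlap, against 15.4% of all genes. None separated in 1 direction on both scales, against 5.31% of all genes, so the hnRNPs had no common direction here that both scales share. EdgeR called 0 of the 10 and 8 of all genes (0.0491%). DESeq2 called 0 of the 10, and its share of all genes here is not given. Of the 10, 4 had an unadjusted p below 0.05, against 10.9% of all genes.

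The 4 were HNRNPA2B1 (14.5%, 3.54 to 26.7), HNRNPA1 (13.8%, 2.93 to 25.9), HNRNPM (17.997%, 3.75 to 34.2) and HNRNPD (13.4%, 1.63 to 26.5), with edgeR adjusted p of 0.325, 0.334, 0.334 and 0.392 in that order. They are the same genes as in the YTHDF2 guide comparison, which shares the YTHDF2-NT libraries. Without YTHDF2-NT 2 all 4 were called (edgeR adjusted p between 0.0275 and 0.0348), among 1610 of 16760 genes (9.61%).

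Each hnRNP gene is spread over several transcript models, between 7 for HNRNPF and 50 for HNRNPH1. Of the 196 models, 112 had a mean of at least 1 TPM, 24 were listed at 0 in all libraries and 123 passed the count filter. HNRNPA2B1 was the most concentrated gene, with 93.2% of its TPM on HNRNPA2B1-202, and the model HNRNPF-201 held 80.1% of the TPM of HNRNPF. Single models led HNRNPK (HNRNPK-202, 55.2%) and HNRNPL (HNRNPL-210, 53.9%). The most abundant model of HNRNPA1 held 40.0%. HNRNPM was led by the 298-base model HNRNPM-210 with 39.2% and HNRNPD by HNRNPD-208 with 38.7%. HNRNPC-211 (21.1%) and HNRNPH1-204 (20.1%) led genes in which 7 and 9 models were needed for 90% of the TPM.

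HNRNPU was the exception, since its leading model was not annotated as coding. HNRNPU-225, a 461-base model annotated to NMD, held 27.2% of its TPM, and all NMD models together 40.7%. HNRNPD came next with 25.2%, nearly all on HNRNPD-211, followed by HNRNPA1 with 5.80% on HNRNPA1-205 and HNRNPA2B1 with 5.63% on HNRNPA2B1-203. The other hnRNPs had at most 3.52% on NMD models, and HNRNPF has no such model. Retained-intron models held 31.2% of HNRNPL, mostly HNRNPL-205, and 18.8% of HNRNPC, mostly HNRNPC-206. For HNRNPH1, HNRNPK and the others they held at most 3.68%. Short fragments weigh much per read in TPM, and a polyadenylated model's annotation says nothing of its measured decay.

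These shares were least alike in YTHDF2-NT 1. The NMD share of HNRNPU was 23.8% there and 38.3% to 45.9% in the other 11 libraries, the retained-intron share of HNRNPL 43.9% against 27.1% to 34.2%, and that of HNRNPC 30.6% against 14.3% to 20.8%. HNRNPU-224, a second NMD model, had 11.6 TPM in YTHDF2-NT 1 and 57.3 to 97.4 TPM elsewhere.

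Across guides, the NMD share of HNRNPA1 separated the groups with both effectors, in opposite directions. It was 4.68%, 5.27% and 4.67% in nuclease-SMARCA4, against 7.03%, 6.37% and 6.19% in nuclease-NT. It was 6.46%, 6.35% and 6.10% in YTHDF2-SMARCA4, against 5.31%, 5.69% and 5.65% in YTHDF2-NT. The share was thus lower under the SMARCA4 guide with the nuclease and higher with YTHDF2, each with an exact permutation p of 0.1, the smallest possible. The NMD shares of all genes above 50 TPM separated the guides in 9.31% of 1171 genes with the nuclease and in 8.80% with YTHDF2. Beyond that level, neither these genes nor those behind the retained-intron shares below were matched to the hnRNPs for abundance.

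HNRNPA2B1 had an NMD share of 4.30%, 3.79% and 5.23% in nuclease-SMARCA4, against 6.30%, 6.48% and 6.71% in nuclease-NT. No library overlapped, and this is the same model that dominated its 36-base segment above. HNRNPU had a higher NMD share in nuclease-SMARCA4 (40.4%, 42.3% and 43.9%) than in nuclease-NT (39.9%, 38.3% and 40.2%) and a lower retained-intron share (0.59% ± 0.17 against 0.91% ± 0.10, SD, n = 3 each). HNRNPH1 had a retained-intron share of 3.93%, 3.37% and 2.05% in nuclease-SMARCA4, against 4.75%, 4.57% and 4.41% in nuclease-NT. Over all genes 10.5% separated these groups by retained-intron share. In all, 4 of the 10 genes separated the guides with the nuclease by either share, against 14.3% of 1878 genes. When models under a mean of 0.5 TPM were left out, 2 of the 10 did, and no share over all genes is given for that setting.

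With YTHDF2, 2 of the 10 separated the guides by either share, against 14.0% of all. Besides HNRNPA1 this was HNRNPD, whose retained-intron share was 0.12% ± 0.02 in YTHDF2-SMARCA4 and 0.07% ± 0.01 in YTHDF2-NT (SD, n = 3 each). Retained-intron shares of all genes separated these groups in 9.76%. With 1 library left out, fewer libraries have to be apart and more of all genes separate: 7 of the 10 did without YTHDF2-NT 2, against 36.2% of all, and 4 without YTHDF2-SMARCA4 1, against 24.7%. Between effectors under the SMARCA4 guide 3 of the 10 separated, against 17.0% of all: the NMD shares of HNRNPA1 (6.30% ± 0.19 in YTHDF2-SMARCA4, 4.87% ± 0.34 in nuclease-SMARCA4) and HNRNPD (25.6% ± 1.12 in YTHDF2-SMARCA4, 22.8% ± 1.23 in nuclease-SMARCA4) and a trace retained-intron share of HNRNPM, all higher with YTHDF2. Over all genes 10.4% separated these groups by NMD share and 12.4% by retained-intron share. Leaving out YTHDF2-SMARCA4 1 gave 6 of the 10, against 28.5% of all, and leaving out nuclease-SMARCA4 3 gave 5, against 29.1%. Under the non-targeting guide 2 of the 10 separated, against 13.2% of all, HNRNPA1 by its NMD share and HNRNPH1 by its retained-intron share, both lower in YTHDF2-NT. Over all genes 8.88% separated these groups by NMD share and 8.93% by retained-intron share. Leaving out YTHDF2-NT 2 gave 6 of the 10, against 34.1% of all, and leaving out nuclease-NT 3 gave 5, against 23.7%. The exact permutation p of each such share is 0.1, so none can pass 0.05.

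**Figure D5:**
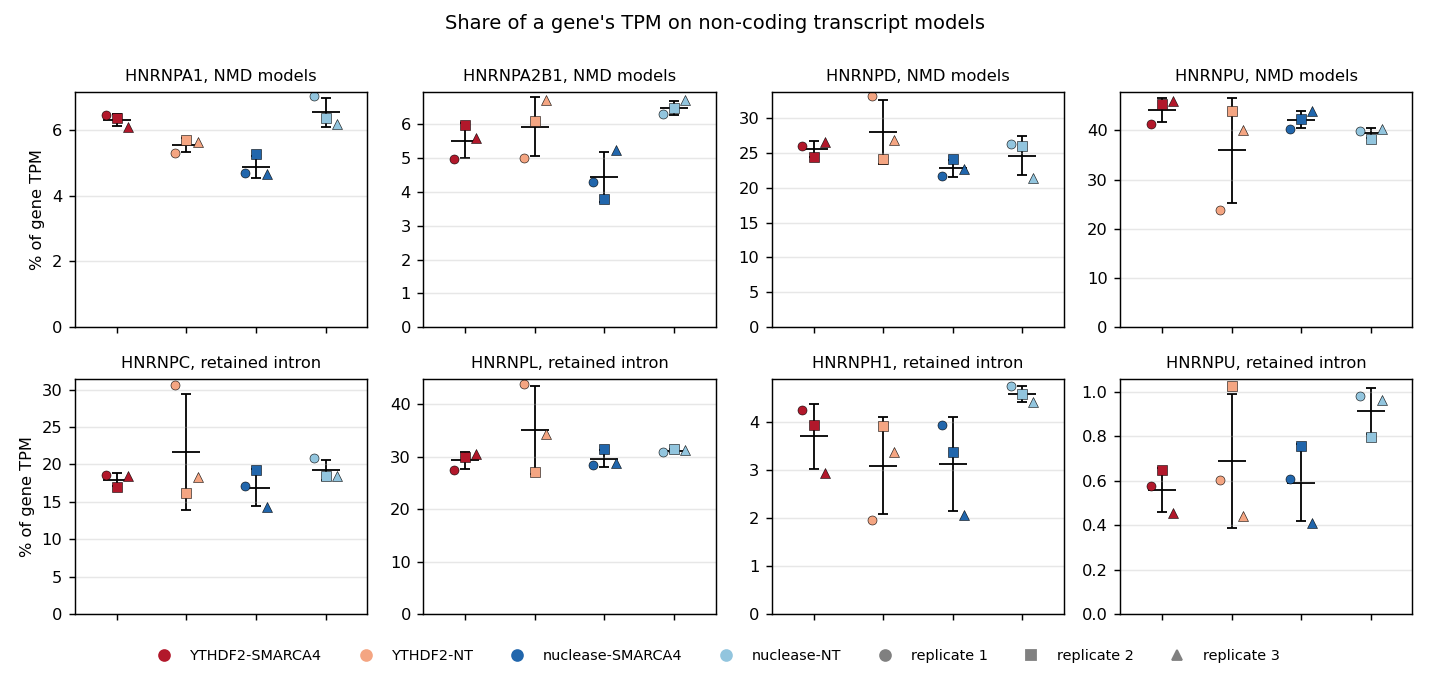
Share of a gene's TPM on models annotated to NMD (upper row) and on retained-intron models (HNRNPC, HNRNPL, HNRNPH1 and HNRNPU, lower row), by library, with mean ± SD of 3 in black and axes from 0. The HNRNPA1 panel runs from 4.67% to 7.03%, lowest in nuclease-SMARCA4, and YTHDF2-NT replicate 1 stands apart for HNRNPU, HNRNPC and HNRNPL.

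No hnRNP transcript model was called by edgeR in any of the 5 comparisons, in which it called 3 (YTHDF2 guide, 0.00606%), 1 (nuclease guide, 0.00202%), 3 (difference, 0.00606%), 2 (effectors, non-targeting guide, 0.00404%) and 4 (effectors, SMARCA4 guide, 0.00808%) of 49518 models. At an unadjusted p below 0.05 there were 11, 16, 17, 9 and 13 of the 123 hnRNP models, against 4.33%, 4.72%, 5.11%, 5.17% and 4.44% of all models in that order. DESeq2 called 2, 9, 5, 1 and 4 of them, among 308, 469, 414, 463 and 380 models in all (0.622%, 0.947%, 0.836%, 0.935% and 0.767%).

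HNRNPM-202, HNRNPC-209 and HNRNPU-224 were picked for description after their values were seen. HNRNPM-202 had the smallest p in the YTHDF2 guide comparison. It had 23.9, 26.9 and 22.5 TPM in YTHDF2-SMARCA4, against 54.4, 36.8 and 41.4 TPM in YTHDF2-NT, and 24.9 to 33.1 TPM in the nuclease groups. All YTHDF2-NT libraries were higher than all 9 others, with a log2 fold change of −1.01 ± 0.22 (SE) and an adjusted p of 1 in edgeR and of 0.00210 in DESeq2. HNRNPC-209, a minor model, was listed at 0 in all nuclease-SMARCA4 libraries, against 2.92, 6.69 and 10.04 TPM in nuclease-NT, and at 2.73 to 5.76 TPM in the 6 YTHDF2 libraries. Its adjusted p was 0.0876 for the nuclease guide in edgeR, the lowest of any hnRNP model there, and it is 0.28% of the gene.

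The other hnRNP family members and nuclear RNA-binding proteins that copurify with them formed a list of 25 genes, compared here in CPM only. EdgeR called none of them in any comparison. Without YTHDF2-NT 2 the genes it called lower for the YTHDF2 guide, 1585 genes (9.46%) being called in all, included EWSR1, TAF15, HNRNPUL2 and HNRNPAB. It called EWSR1 and TAF15 between effectors under the non-targeting guide in that fit, among 1610 genes (9.61%). For the YTHDF2 guide 20 of the 25 had lower fitted CPM in YTHDF2-SMARCA4 and 9 separated, all lower, against 9.27% of all genes and 13.1% of the abundant ones, and the median log2 fold change was −0.07, against −0.11 for the 10 and −0.01 for all genes. The smallest p were those of EWSR1, a FET family RNA-binding protein (432 ± 13.8 CPM in YTHDF2-SMARCA4 and 524 ± 48.8 CPM in YTHDF2-NT, SD, n = 3 each, edgeR adjusted p = 0.703), and HNRNPUL2, a relative of HNRNPU (105 ± 16.2 CPM in YTHDF2-SMARCA4 and 133 ± 3.39 CPM in YTHDF2-NT, edgeR adjusted p = 0.703). For the nuclease guide 17 of the 25 were lower and 6 separated, 3 in each direction, against 25.1% of all genes. PCBP2, a cytosine-tract binder, was 11.6% higher (2.30 to 21.8, edgeR adjusted p = 0.351) and PTBP2, the neuronal polypyrimidine tract protein, 18.5% lower (−31.3 to −3.30 in percent, edgeR adjusted p = 0.372).

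Between effectors under the SMARCA4 guide 15 of the 25 were higher with YTHDF2 and 10 lower. PTBP2 had 66.6 ± 3.37 CPM in YTHDF2-SMARCA4 and 47.9 ± 5.10 CPM in nuclease-SMARCA4 (SD, n = 3 each), 39.0% higher (17.3 to 64.7) with an edgeR adjusted p of 0.233, and TARDBP, which encodes TDP-43, was 11.5% higher (1.81 to 22.2, edgeR adjusted p = 0.376). PTBP2 was called by DESeq2 (adjusted p = 0.0252), among 102 genes in all (0.626%). EdgeR called it without YTHDF2-NT 1 (adjusted p = 0.0350, among 70 genes, 0.419%), without a filter on low counts (296 genes, 0.856%) and with the compared groups alone (660 genes, 4.25%). Without YTHDF2-NT 1 and 2 the log2 fold change of PTBP2 was 0.47. Under the non-targeting guide 19 of the 25 were higher in YTHDF2-NT, with EWSR1 at 17.0% (4.97 to 30.5, edgeR adjusted p = 0.296) and HNRNPDL at 14.1% (3.51 to 25.7, edgeR adjusted p = 0.322) first by p. For the difference of guide effects HNRNPA3 (−16.0%, −26.1 to −4.52, edgeR adjusted p = 0.380) and HNRNPUL2 (−22.3%, −36.7 to −4.61, edgeR adjusted p = 0.407) were first.

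Pseudogenes and retrocopies named after the 10 genes can trade reads with them, since kallisto divides reads among similar sequences. There were 105, of which 76 were named after HNRNPA1 and summed to 64.4 TPM, 2.38% of the level of HNRNPA1. HNRNPA1P48 alone had a median of 39.1 TPM (31.5 to 43.8). The copies of HNRNPC summed to 3.73 TPM, 0.30% of that gene, led by HNRNPCP1 with a median of 1.46 TPM. Copies of the other genes were at most 0.22% of theirs, led by HNRNPLP2 (median 1.03 TPM), HNRNPUP1 (1.04 TPM), HNRNPKP4 (0.39 TPM) and HNRNPH1P1 (0.07 TPM), with HNRNPDP1, HNRNPFP1 and HNRNPMP2 at a median of 0. No gene is named as a copy of HNRNPA2B1. Adding the copies' counts to the parents changed no call.

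Across the 12 libraries, the gene most like each hnRNP was the one, of 9933 with at least 10 CPM, with the smallest root mean square difference of centred log2 CPM. The points share their libraries, with the length trend described above. HNRNPA1 was nearest to AAAS (0.040, against a median of 0.17 over all candidates). HNRNPA2B1 lay nearest to ANP32A (0.033), and its nearest hnRNP of the 10 was HNRNPD (0.047). HNRNPD in turn lay nearest to RBM8A (0.040), which encodes the exon junction protein Y14. SUMO3 was nearest to HNRNPC (0.026) and KHDRBS1, which encodes the RNA-binding protein SAM68, to HNRNPK (0.027). TARDBP was nearest to HNRNPH1 (0.026), SLC20A1 to HNRNPF (0.032) and PSMD2 to HNRNPL (0.032). HNRNPM had the least close neighbour, WDR46 (0.056), and the largest SD of its own log2 CPM (0.16), and HNRNPU was nearest to BAZ1B (0.049).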

How the data were processed

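RNA was measured by mRNA sequencing in 12 HEK-293T libraries of 4 groups. The authors deposited kallisto abundance tables per transcript model, with estimated counts and TPM, and per the submitters' processing notes used kallisto, sleuth and build hg38; versions are not given in the sources used here. From these, estimated counts were summed per gene ID, rounded to whole numbers and tested with edgeR 4.0.16 (R 4.3.3; TMM scaling, filterByExpr, 1 mean per group, quasi-likelihood test, Benjamini-Hochberg adjusted p below 0.05). All 12 libraries entered 1 fit of 16297 genes, which kept at least 99.8% of each library's counts (biological coefficient of variation 11.4%, 8 residual degrees of freedom), or of 49518 models (83.8%). DESeq2 1.42.0 and other settings were alternatives. GENCODE v29 matched 197690 of 200401 models and gave coordinates and segments. Biotypes were those carried in the model identifiers of the deposited abundances. Groups of 3 were also compared by non-overlap and by an exact two-sided permutation test. Exact intervals for counting error were not used, and depth per library is given with the results. The 10 genes were all named in every comparison; of the models, the most abundant, the highest NMD and the highest retained-intron model of each gene were named, and of the copies and other hnRNPs the leading ones. The genes and lists were chosen with earlier results of these data known, and the TPM comparisons and coding segments were added after the data were seen. The fits were tested on simulated data. Protein sequences were not used here. The sequence and values of 1 coding segment, and the values of 1 gene of the list of 25, are not reported here.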

Additional observations from a re-analysis of the deposited data

Results flagged for a closer look

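The level of HNRNPA1 differed in opposite directions under the SMARCA4 guide, with no overlap of the libraries in CPM with either effector. Of the 436 genes at least as abundant as HNRNPF, 58.3% were higher and 5.96% lower without overlap with the nuclease. With YTHDF2, 12.6% of them were lower and 0.459% higher without overlap. The share of genes with opposite directions was not taken. In CPM the guide effect with YTHDF2 minus that with the nuclease was −786, and the interaction test gave an edgeR adjusted p of 0.271; in TPM HNRNPA1 separated the guides only with the nuclease.

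The NMD share of HNRNPA1 also differed in opposite directions without overlap. The difference of guide effects, YTHDF2 minus nuclease, was 2.41 percentage points, which was not tested. NMD shares separated the guides in 9.31% of 1171 genes with the nuclease and in 8.80% with YTHDF2.

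HNRNPL differed in opposite directions in CPM, with a difference of guide effects of −87.1 CPM (edgeR adjusted p of the interaction = 0.456). Its direction with the nuclease was the opposite in TPM. The shares of abundant genes given above for HNRNPA1 hold for HNRNPL too.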

How the results depend on the processing

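Of 600 values from leaving out 1 library, 572 kept their direction and side of the threshold, 11 passed the threshold and 17 changed sign; of 440 values from other settings 417 kept both, 8 passed and 15 changed sign. For the nuclease guide, HNRNPA2B1 was at −0.00097 with DESeq2, −0.0010 with RLE factors, −0.0021 with the compared groups alone and −0.0016 with length-scaled TPM (−0.027 to 0.021 leaving out 1 library), and HNRNPH1 at 0.0095 with length-scaled TPM. For the YTHDF2 guide, HNRNPF was at −0.037 without YTHDF2-NT 1 and 2 (−0.031 to 0.059 leaving out 1 library) and HNRNPC ranged from −0.089 to 0.0054. In the difference of guide effects, HNRNPH1 was at −0.0052 without YTHDF2-NT 1 and 2 and −0.022 with length-scaled TPM (−0.029 to 0.053 leaving out 1 library). For YTHDF2-NT over nuclease-NT, HNRNPF was at −0.0045 with DESeq2, −0.0048 with RLE factors, −0.011 without a filter, −0.00063 with the replicate block and −0.019 with length-scaled TPM (−0.033 to 0.059 leaving out 1 library), and HNRNPL at −0.00090 without a filter and −0.015 with the length trend removed (−0.017 to 0.028). The cause was not tested.

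Called hnRNP genes, 0 in each comparison, became 1 for the nuclease guide with its groups alone (3.57% of all genes) and 1 for the YTHDF2 guide without a filter (0.619%). They became 1 for the difference with DESeq2 (0.337%) and 1 for YTHDF2-SMARCA4 over nuclease-SMARCA4 with its groups alone (4.25%). Leaving out 1 library gave 0 to 4 for the YTHDF2 guide, 0 to 3 for the difference and 0 to 4 for YTHDF2-NT over nuclease-NT. Each was highest without YTHDF2-NT 2, where 9.46%, 8.62% and 9.61% of all genes were called in that order. Called models, 0 throughout with edgeR, were 9, 2, 5, 1 and 4 with DESeq2 for the nuclease guide, YTHDF2 guide, difference, non-targeting guide and SMARCA4 guide. DESeq2 called 0.947%, 0.622%, 0.836%, 0.935% and 0.767% of all models in that order.

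Genes with separated NMD or retained-intron shares numbered 2 for the nuclease guide with models of at least 0.5 TPM, and 1 for YTHDF2-NT over nuclease-NT with those models and 1 with shares of counts. No share over all genes is given for these settings, so these counts cannot be weighed. Leaving out 1 library gave 5 to 6 for the nuclease guide (24.7% to 28.5% of all genes) and 3 to 7 for the YTHDF2 guide (24.7% to 36.2%). It gave 2 to 6 for YTHDF2-NT over nuclease-NT (22.3% to 34.1%) and 3 to 6 for YTHDF2-SMARCA4 over nuclease-SMARCA4 (28.4% to 29.1%). Separated segments numbered 2 to 3, 0 to 3, 0 to 2 and 2 to 4 in that order. Of all segments 18.6% to 21.6%, 17.7% to 34.8%, 16.2% to 30.6% and 21.7% to 23.8% separated.

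Replicate numbers did not pair the libraries (correlation of same-numbered deviations −0.11 to 0.07). A fit with the replicate block called 0 of the 10 genes and 0 hnRNP models in all 5 comparisons. The shares of all genes and models called in that fit are not given.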
